A study of Mus musculus with 3 samples.

Results

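Solute carriers are membrane proteins that move amino acids, sugars, ions, metals, vitamins and metabolites across the cell surface and the membranes of organelles. The genes described here are those of the deposited count table whose symbol starts with Slc, a family number, the letter a and a member number, with at least 100 counts summed over the 3 libraries. Of 44788 genes in the table, 347 matched the symbol pattern, 167 reached the count minimum, and 164 remained after Slc26a2, Slc2a1 and Slc2a3 were left out by name. The other 180 lay under the minimum, and 75 of them had no count in any library. Members were chosen by their symbol and by counts summed over the same libraries, which favour abundant and long transcripts, and not by the difference between genotypes. A gene near the minimum could still reach it mainly through the genotype where it was higher. Just inside the minimum lay Slc29a2 with 105 summed counts, Slc9a7 with 110 and Slc16a10 with 112. Just outside lay Slc26a7 with 97 (22, 14 and 61 counts in cKO replicate 1, cKO replicate 2 and the control), Slc45a3 with 91 and Slc1a1 with 91.

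The libraries came from primary chondrocytes of C57BL/6 knee joint cartilage, all with both alleles of Kdm6b floxed (Kdm6bf/f), grown in F12 medium with 10% fetal bovine serum. The 2 cKO libraries came from Col2a1-CreERT2;Kdm6bf/f cells, in which the Col2a1 promoter, active in chondrocytes, drives a tamoxifen-activated Cre recombinase. The 1 control library came from Kdm6bf/f cells without the recombinase, and both genotypes received 4-hydroxytamoxifen at 1 µM for 48 h. No group was left without tamoxifen, and no group carried the recombinase with intact Kdm6b, so the effects of the recombinase itself and of the loss of Kdm6b cannot be told apart here. The ages of the mice are not analysed here.

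Each transporter family has its own substrates. Chondrocytes live without blood vessels, depend largely on glycolysis, export lactate, and take up amino acids and sulfate for a matrix rich in collagen and sulfated proteoglycans. Solute carriers supply these substrates, and mitochondrial, Golgi and lysosomal carriers pass them on between compartments.

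Library totals ran from 12489738 to 12636471 counts. All levels are in CPM (read counts scaled to library size) and, unless stated, in the order cKO replicate 1, cKO replicate 2, control. For Kdm6b, the targeted gene, raw counts were 1049, 948 and 1289, which is 84.2, 74.1 and 103.9 CPM. Its log2 fold change of -0.39 ± 0.14 (SE) did not pass the test (edgeR adjusted p = 0.138), and gene-level counts do not separate floxed from other exons. The cKO libraries differed in Xist, at 2 and 10081 counts against 1 in the control, so those 2 libraries did not come from the same animal. The Y-linked genes Ddx3y and Uty had 680, 0 and 732 counts and 219, 0 and 201 counts. By these counts cKO replicate 1 and the control look male and cKO replicate 2 female. The spread within the cKO pair thus includes a difference in sex. Of 10 listed chondrocyte markers, 9 were in the table, and 8 of the 9 were called lower in cKO. The summed level of the 9 was 15298, 14349 and 25736 CPM. Most of that sum was Col2a1, at 12527, 11984.5 and 20116 CPM. Col2a1 was the 1 marker not called in edgeR (adjusted p = 0.283), and it passed in DESeq2 (adjusted p = 0.000664). All 10 listed interferon-response genes were called higher in cKO and summed to 2617, 2466 and 125.5 CPM. The chondrocyte and interferon lists were chosen with earlier results of these data known, so these counts test nothing. Over all genes tested, 3.01% were called higher and 1.9% lower. Leukocyte markers, 9 of 10 in the table, summed to 13.2, 13.05 and 8.06 CPM, with Itgam and Tyrobp at 0 in each library, red blood cell markers were at 0 throughout, and endothelial markers summed to 0.242 to 1.28 CPM. Fibroblast and synovial markers, 7 of 7 in the table, summed to 19795, 18019 and 20497 CPM, and osteoblast markers to 19.7, 22.1 and 34.7 CPM. The part of these shifts in the carrier values below was not tested, and in bulk RNA fewer cells of a type and less RNA per cell cannot be told apart.

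Most carrier transcripts differed little between the genotypes. Of the 164 members, all of which entered the test, 3 rose, 4 fell and 157 did not pass in edgeR's quasi-likelihood test at an adjusted p of 0.05. That is 4.27% of the members, beside 4.91% of the 15529 genes tested, of which 3.01% rose and 1.9% fell. An unadjusted p under 0.05 was reached by 28 members, 11 higher and 17 lower, which is 17.1% beside 15.7% of all genes tested. The genes that rose were Slc6a17, Slc25a22 and Slc38a4, and those that fell were Slc16a14, Slc7a3, Slc41a2 and Slc40a1. The same 7 were called by limma-voom, which called 5.32% of all genes tested, whereas DESeq2 called 0 members, with 9 at an unadjusted p under 0.05. Over the 14725 genes to which DESeq2 gave an adjusted p it called 310 (2.11%), and 6.36% had an unadjusted p under 0.05. The lone control is assumed in these fits to vary like the cKO pair, and with the prior degrees of freedom lowered from 19.9 to 5 or to 3, 0 members passed in edgeR, with 19 and 17 at an unadjusted p under 0.05. Those settings called 1.24% and 0.56% of all genes tested, and 10.7% and 8.15% had an unadjusted p under 0.05. The 7 calls were thus made by edgeR and limma-voom and not by DESeq2, whose adjusted p for them ran from 0.181 for Slc6a17 to 0.747 for Slc40a1.

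The summed level of all members was nearly the same in each library. Their share of all counts was 0.862%, 0.861% and 0.875%. The median log2 fold change over the members was -0.08 (quartiles -0.21 and 0.17), beside 0.00 over all genes tested (quartiles -0.22 and 0.21). Of the members, 140 differed by less than 0.5 on the log2 scale, which is 85.4%, beside 79.7% of all genes tested. The genes tested include more genes of low count than the members do. At a mean of at least 5 CPM the shares were close, at 89.9% of 149 members and 88.4% of 11356 genes tested. Both cKO libraries lay below the control for 83 members and above it for 51, and 30 had the control between or level with the cKO libraries. Over all genes tested, both lay below for 37.4% and above for 36.6%, against 50.6% and 31.1% of the members. These shares compare 2 libraries with 1 and carry no test.

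**Figure D1:**
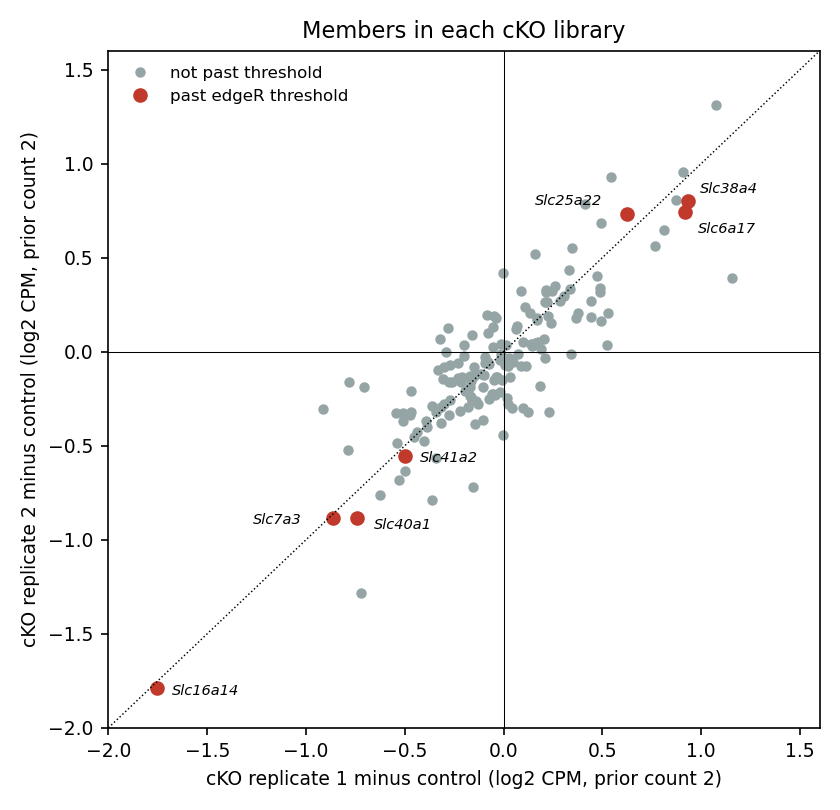
Log2 CPM of each cKO library minus the control, with replicate 1 on the horizontal and replicate 2 on the vertical axis (prior count 2), 1 point for each of the 164 members, red for the 7 past the edgeR threshold. The dotted line marks equal differences, and Slc16a14 lies farthest from the origin at lower left.

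The 2 cKO libraries resembled each other more than either resembled the control. Over the 149 members at a mean of at least 5 CPM, log2 differences had an SD of 0.192 within the cKO pair, and of 0.325 and 0.322 when replicate 1 and replicate 2 were set against the control. For the 11356 genes tested at that level the same SDs were 0.332, 0.558 and 0.549. Within the cKO pair the widest gap among these members was that of Slc25a3, the mitochondrial phosphate carrier, at 100.2 and 154 CPM against 172 CPM in the control. That gene, named for this gap after its values were seen, did not pass (log2 -0.44 ± 0.18 SE, edgeR adjusted p = 0.202).

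Slc16a14 had the largest difference of any member. It encodes an orphan of the monocarboxylate transporter family, whose other members carry lactate or aromatic amino acids, and its own substrate is poorly defined. The gene (ENSMUSG00000026220) lies on the minus strand of chromosome 1 from 84905898 to 84935134 (GRCm38). Its raw counts were 26, 26 and 92, which is 2.09, 2.03 and 7.42 CPM, so the cKO libraries lay together and well below the control. It fell by 1.84 ± 0.35 on the log2 scale (SE), to 2.06 ± 0.04 CPM (SD, n = 2), a 3.59-fold difference (edgeR adjusted p = 0.0019, DESeq2 adjusted p = 0.219). Lower levels by 2-fold or more in both cKO libraries were found for this member alone, and for 1.17% of all genes tested. Its mean level was 4.74 CPM. At a mean of at least 5 CPM such a difference was found for 0 members and for 60 of 11356 genes tested.

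The promoter windows of the carriers that changed are shown because they are the regulatory sequence next to the genes on which the comparison turns. Windows run from 250 bases before to 50 after a transcript start in RefSeq (GRCm38.p6), 5′ to 3′ on the gene's strand, all here on the minus strand. Where RefSeq has several starts, the one farthest upstream was taken. Slc16a14 (chr1:84935034-84935333) and Slc41a2 (chr10:83337768-83338067) have 1 window each, Slc6a17 (chr3:107517969-107518268) has 2, and Slc25a22 (chr7:141437825-141438124) and Slc38a4 (chr15:97055907-97056206) have 3. Slc7a3 and Slc40a1 are named without a sequence.
Slc16a14: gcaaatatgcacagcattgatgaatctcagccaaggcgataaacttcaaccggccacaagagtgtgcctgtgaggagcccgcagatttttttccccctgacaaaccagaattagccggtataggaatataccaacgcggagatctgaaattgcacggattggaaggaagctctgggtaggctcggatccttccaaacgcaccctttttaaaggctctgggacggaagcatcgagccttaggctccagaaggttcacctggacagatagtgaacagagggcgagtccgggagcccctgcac
Slc41a2: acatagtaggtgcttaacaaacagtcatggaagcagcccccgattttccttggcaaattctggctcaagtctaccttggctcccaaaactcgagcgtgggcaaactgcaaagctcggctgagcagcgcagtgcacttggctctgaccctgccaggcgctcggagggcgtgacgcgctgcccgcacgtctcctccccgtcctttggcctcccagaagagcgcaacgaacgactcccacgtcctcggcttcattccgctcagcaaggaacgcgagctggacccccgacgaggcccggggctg
Slc6a17: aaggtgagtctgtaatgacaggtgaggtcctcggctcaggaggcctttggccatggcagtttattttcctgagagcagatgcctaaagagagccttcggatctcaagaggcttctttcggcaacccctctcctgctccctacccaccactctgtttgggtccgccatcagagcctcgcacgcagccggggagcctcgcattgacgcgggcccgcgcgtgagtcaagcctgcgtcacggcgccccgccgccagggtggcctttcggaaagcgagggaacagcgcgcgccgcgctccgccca
Slc25a22: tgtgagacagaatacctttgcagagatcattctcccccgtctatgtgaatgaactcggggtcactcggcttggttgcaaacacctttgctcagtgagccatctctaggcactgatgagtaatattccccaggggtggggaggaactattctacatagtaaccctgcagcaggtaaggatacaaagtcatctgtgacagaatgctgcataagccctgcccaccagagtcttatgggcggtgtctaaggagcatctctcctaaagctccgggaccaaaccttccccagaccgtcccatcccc
Slc38a4: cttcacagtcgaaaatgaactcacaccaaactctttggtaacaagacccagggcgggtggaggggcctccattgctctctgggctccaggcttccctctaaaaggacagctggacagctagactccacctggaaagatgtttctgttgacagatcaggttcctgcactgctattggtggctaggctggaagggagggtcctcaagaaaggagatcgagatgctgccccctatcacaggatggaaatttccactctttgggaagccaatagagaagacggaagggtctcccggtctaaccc
Capitals would mark either of 2 motifs searched on both strands: TGATGNAA, the core bound by ATF4 with C/EBP partners in amino acid stress, and the E-box CACGTG. None of these letters occurs in the 5 windows. Among the 125 members with a window, the first was found in 4 and the second in 19, or 3.20% and 15.2%. Among the 9744 genes tested that have a window the shares were 2.11% and 10.2%. The windows of Slc16a14 and Slc25a22 hold 13 and 6 CpG dinucleotides, those of Slc6a17 and Slc41a2 hold 26 and 24, and that of Slc38a4 holds 5, so their CpG content differs.

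**Figure D2:**
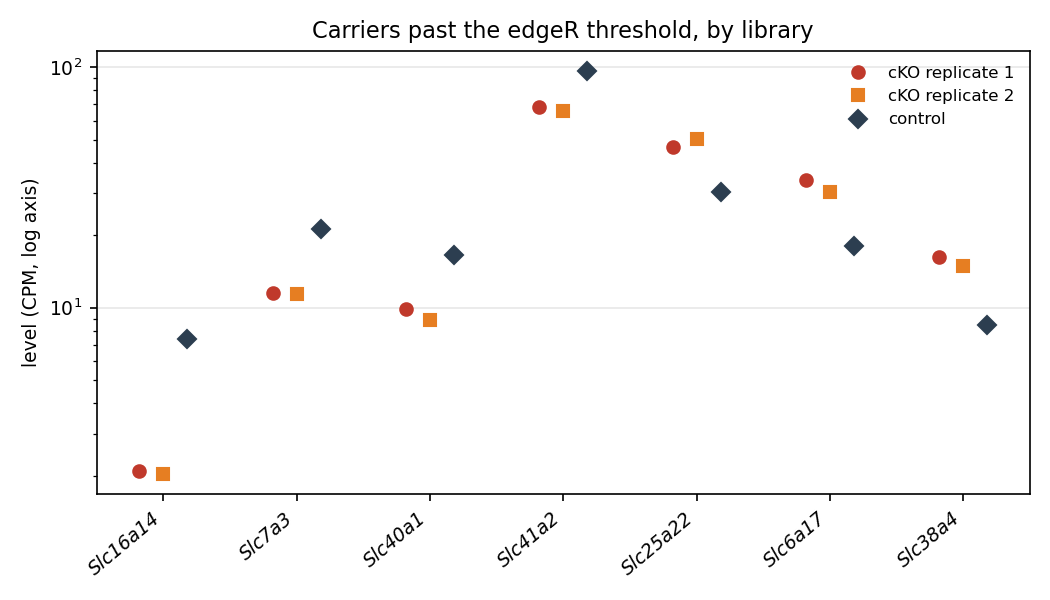
Level in CPM (log axis) of the 7 members past the edgeR threshold in each library, with circles and squares for the cKO libraries and diamonds for the control. In each of the 7 the cKO points lie together on one side of the control. Over all genes tested, both cKO libraries lay above the control for 36.6% and below it for 37.4%.

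Of 28 measured carriers of amino acids, peptides and osmolytes, 2 rose and 1 fell, which is 10.7% beside 4.27% of the members and 4.91% of all genes tested, and the class median was -0.13 on the log2 scale. Slc6a17, which loads neutral amino acids into vesicles in neurons, lay at 34.1, 30.2 and 17.97 CPM (chromosome 3, 107467543 to 107518018, GRCm38). It rose 1.79-fold, by 0.84 ± 0.19 on the log2 scale (SE, edgeR adjusted p = 0.00755, DESeq2 adjusted p = 0.181). Slc38a4, a sodium-coupled importer of neutral amino acids and an imprinted gene in the mouse, lay at 16.3, 14.8 and 8.46 CPM (chromosome 15, 96994820 to 97055956). It rose 1.84-fold (log2 0.88 ± 0.24 SE, edgeR adjusted p = 0.0349). Slc7a3, an importer of arginine and lysine on chromosome X (101079210 to 101086020), lay at 11.6, 11.4 and 21.2 CPM. It fell by 0.88 ± 0.21 on the log2 scale (SE, edgeR adjusted p = 0.0132), a 1.85-fold difference. For each of these 3 genes both cKO libraries lay on the same side of the control. That is common with 1 control: over all genes tested both lay above it for 36.6% and below it for 37.4%.

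The most abundant amino acid carriers did not pass. Per kilobase of exon, the order was led by Slc38a10, a broad amino acid carrier, at 54.3 CPM per kilobase, Slc3a2, the heavy chain that brings several light-chain exchangers to the surface, at 48.1, and Slc1a4, an exchanger of alanine, serine and cysteine, at 42.6. Slc38a10 lay at 383, 348 and 332 CPM in cKO replicate 1, cKO replicate 2 and the control, a log2 difference of 0.14 ± 0.14 (SE). The creatine importer gene Slc6a8, on chromosome X, lay at 93.9, 86.6 and 84.0 CPM.

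Of 11 listed carriers tied to the amino acid stress response, 1 passed the test. ATF4 is the transcription factor that raises amino acid import when amino acids run short. The list of carriers linked to it was drawn up from general knowledge, but with earlier results of these data known. Its shares below describe the list and were not tested. All 11 were tested and 10 are members, the exception being Slc43a1. Of the 11, 0 rose and 1, Slc7a3, fell, which is 9.09% beside 4.91% of all genes tested called and 1.9% called lower, and the median was -0.20 on the log2 scale. Both cKO libraries lay below the control for 10 of the 11, beside 50.6% of the members and 37.4% of all genes tested, and above it for Slc43a1, at 1.61, 1.88 and 1.53 CPM (log2 0.18 ± 0.52 SE). Slc7a5, the importer of large neutral amino acids, lay at 101, 112 and 145 CPM (log2 -0.44 ± 0.14 SE, edgeR adjusted p = 0.0699). Slc1a5, the glutamine carrier, lay at 71.1, 78.2 and 98.7 CPM, and Slc6a9, the glycine carrier, at 51.1, 51.1 and 70.0 CPM. Neither passed, with adjusted p-values of 0.120 and 0.0799 in edgeR. Slc38a2, a carrier of small neutral amino acids, lay at 298, 269 and 325 CPM, and the cystine importer Slc7a11 at 9.63, 8.83 and 10.6 CPM. Slc3a2, the partner chain of Slc7a5 and Slc7a11, lay at 155, 163 and 180.1 CPM, Slc1a4 at 172, 150.2 and 174 CPM, Slc7a1, the main arginine importer, at 126, 124 and 142 CPM, and Slc36a4 at 36.5, 36.3 and 41.9 CPM. In each of these the control was highest, by a margin that did not pass. Among 14 other genes linked to ATF4, 2 fell, Trib3 by 1.02 ± 0.13 and Chac1 by 0.57 ± 0.16 on the log2 scale (SE), and 0 rose, which is 14.3% called beside 4.91% of all genes tested. Both cKO libraries lay below the control for 8 of the 14 (57.1%) and above it for 2 (14.3%), beside 37.4% and 36.6% of all genes tested, and 4 were mixed. Trib3 passed in DESeq2 too and Chac1 did not. Atf4 itself lay at 377, 349 and 445 CPM and did not pass (edgeR adjusted p = 0.305).

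Promoter windows were found for 7 of the 10 listed members, and 2 of them hold the ATF4 core TGATGNAA, shown in capitals on either strand. The share among the genes tested that have a window was 2.11%. The list was chosen for links to ATF4, so setting it beside that share tests nothing. The 2 windows are shown as those of the list with that motif. Neither gene passed the test, with a log2 difference of -0.20 ± 0.25 (SE) for Slc7a11 and -0.11 ± 0.14 for Slc1a4. The Slc7a11 window (chr3:50443564-50443863, minus strand) holds it 2 times, once on each strand, and the Slc1a4 window (chr11:20332664-20332963, minus strand) 1 time.
Slc7a11: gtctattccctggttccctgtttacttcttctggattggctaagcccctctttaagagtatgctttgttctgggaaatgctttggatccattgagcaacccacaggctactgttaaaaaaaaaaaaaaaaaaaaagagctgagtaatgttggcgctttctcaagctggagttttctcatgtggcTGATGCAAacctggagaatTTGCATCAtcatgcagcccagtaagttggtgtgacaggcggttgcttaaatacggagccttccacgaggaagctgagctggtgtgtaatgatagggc
Slc1a4: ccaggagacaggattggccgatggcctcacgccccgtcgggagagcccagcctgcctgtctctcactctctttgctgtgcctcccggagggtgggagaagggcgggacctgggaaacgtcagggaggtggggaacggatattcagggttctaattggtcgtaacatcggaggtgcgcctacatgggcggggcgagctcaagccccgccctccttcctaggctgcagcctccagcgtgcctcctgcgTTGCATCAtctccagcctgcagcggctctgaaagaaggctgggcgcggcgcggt
A match of these letters is not a measured binding site.

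**Figure D3:**
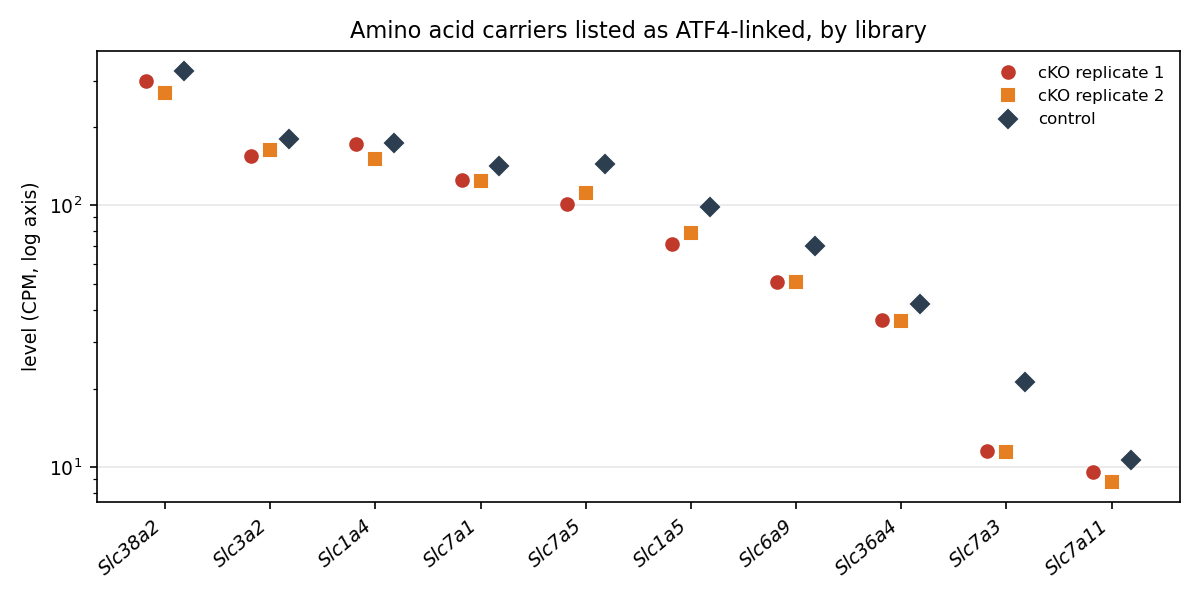
Level in CPM (log axis) of the 10 members listed as ATF4-linked amino acid carriers, in each library. The control diamond lies above both cKO points for each gene, and Slc7a3 alone passed the edgeR test.

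Of 24 carriers of zinc, iron, copper, magnesium and heme, 0 rose and 2 fell, which is 8.33% beside 4.91% of all genes tested called and 1.9% called lower, with a class median of -0.08. Slc41a2, a magnesium transporter (chromosome 10, 83230848 to 83337882, GRCm38), lay at 68.2, 65.6 and 96.5 CPM. It fell by 0.53 ± 0.14 on the log2 scale (SE, edgeR adjusted p = 0.0267), a 1.44-fold difference, the smallest of the 7. Slc40a1, which encodes ferroportin, the exporter of iron from cells (chromosome 1, 45908068 to 45926523), lay at 9.88, 8.91 and 16.6 CPM. It fell by 0.82 ± 0.23 (SE, edgeR adjusted p = 0.0415), a 1.77-fold difference, and did not pass with RLE size factors.

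Zinc and heme carriers were the most abundant metal carriers. Slc39a7, which releases zinc from the endoplasmic reticulum and Golgi, had the highest level per kilobase of all members, at 126.7 CPM per kilobase, and lay at 314, 314 and 341 CPM. Its exons overlap the annotated gene Gm20427 on the same strand. Slc48a1, a heme transporter of endosomes and lysosomes, followed in this class at 84.9 CPM per kilobase and lay at 258, 254 and 211 CPM. Slc39a1, a zinc importer of the cell surface, lay at 147, 143 and 126 CPM. None of the 3 passed, with log2 differences of -0.12, 0.28 and 0.21.

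Of 35 mitochondrial carriers (family Slc25), 1 rose and 0 fell, which is 2.86% beside 4.91% of all genes tested. Slc25a22, the mitochondrial glutamate carrier (chromosome 7, 141429744 to 141437892, GRCm38), lay at 46.6, 50.2 and 30.1 CPM. It rose 1.61-fold, by 0.68 ± 0.16 on the log2 scale (SE, edgeR adjusted p = 0.0131, DESeq2 adjusted p = 0.239). The 3 most abundant carriers of the class per kilobase did not pass. Slc25a4, an exchanger of ADP and ATP, stood at 110.8 CPM per kilobase, the second highest of all members, and lay at 265, 250.5 and 264 CPM. Slc25a5, its paralog on chromosome X, lay at 105, 119 and 111 CPM, and Slc25a39, the carrier of glutathione into mitochondria, at 134, 149.9 and 166 CPM. The ADP and ATP exchangers have near copies in the genome, so the division of reads between them is uncertain. The class median was -0.03.

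Carriers of the Slc16 family numbered 7, of which 1, Slc16a14 above, fell and 0 rose. That is 14.3%, from 1 gene, beside 4.91% of all genes tested. Slc16a3, the lactate exporter of glycolytic cells, was the most abundant at 55.8 CPM per kilobase. It lay at 317, 326 and 272 CPM, with a log2 difference of 0.24 ± 0.14 (SE, edgeR adjusted p = 0.433). Both cKO libraries lay above the control, by less than the test required.

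The other classes held no call in edgeR. Of 22 carriers of protons, bicarbonate and salts, 4 (18.2%) reached an unadjusted p under 0.05, beside 15.7% of all genes tested, and 0 passed (DESeq2 and limma-voom also called 0). Slc4a2, an exchanger of chloride and bicarbonate, lay at 219.7, 175 and 156 CPM. It was above the control in each cKO library and did not pass (edgeR adjusted p = 0.269). Slc12a4, a potassium and chloride cotransporter that acts in volume control, was the most abundant of the class per kilobase at 36.8 and lay at 158, 147 and 163 CPM.

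Of 22 carriers of organic ions, vitamins, nucleosides and choline, 3 (13.6%) reached an unadjusted p under 0.05, beside 15.7% of all genes tested. In edgeR, DESeq2 and limma-voom 0 passed. Slc23a2, the importer of vitamin C, which collagen hydroxylases need, lay at 129.7, 104 and 90.0 CPM (log2 0.38 ± 0.15 SE, edgeR adjusted p = 0.203). The nucleoside carrier gene Slc29a1 lay at 154, 175 and 159.8 CPM, and Slc44a2, of the choline transporter-like family, at 189.6, 192 and 199.97 CPM. The SEs of the last pair, 0.14 and 0.13, exceeded their log2 differences of 0.04 and -0.07.

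Of 9 sugar and polyol carriers, 2 (22.2%) reached an unadjusted p under 0.05, beside 15.7% of all genes tested, and 0 passed in edgeR, DESeq2 or limma-voom. Both cKO libraries lay below the control for 7 (77.8%), beside 50.6% of the members and 37.4% of all genes tested. Slc37a3, of the sugar phosphate exchanger family, lay at 78.2, 78.7 and 82.2 CPM. Slc37a4, which brings glucose 6-phosphate into the endoplasmic reticulum, lay at 41.5, 39.1 and 44.6 CPM, and Slc45a4 at 51.5, 45.6 and 54.2 CPM. At a mean of at least 5 CPM, higher levels by 2-fold or more in both cKO libraries were found for 0 members and 166 of 11356 genes tested. Without that limit they were found for 1 member, beside 2.41% of all genes tested. It was Slc2a9, a urate carrier of the glucose transporter family, at 4.42, 5.23 and 2.02 CPM. Its log2 difference of 1.26 ± 0.41 (SE) rested on 25 control counts and did not pass (edgeR adjusted p = 0.0876). It was named after its values were seen.

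Smaller classes supply the matrix and the lipid pool. Of 6 carriers of nucleotide sugars and acetyl-CoA, which feed glycosylation in the Golgi and acetylation in the endoplasmic reticulum, 0 passed in edgeR, DESeq2 or limma-voom and 0 reached an unadjusted p under 0.05 in edgeR. Slc35a2, the UDP-galactose carrier, lay at 42.7, 49.1 and 51.7 CPM, Slc35a4 at 75.5, 91.7 and 80.1 CPM, and Slc33a1, the acetyl-CoA carrier, at 38.9, 39.5 and 48.0 CPM. The 2 phosphate importers, Slc20a1 at 71.6, 75.2 and 68.4 CPM and Slc20a2 at 38.5, 40.5 and 35.1 CPM, and the 3 fatty acid carriers also held no call and no unadjusted p under 0.05. Of the latter, Slc27a4 lay at 69.9, 65.1 and 63.4 CPM, Slc27a3 at 31.4, 31.4 and 27.9 CPM and Slc27a1 at 17.8, 17.5 and 18.1 CPM.

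**Figure D4:**
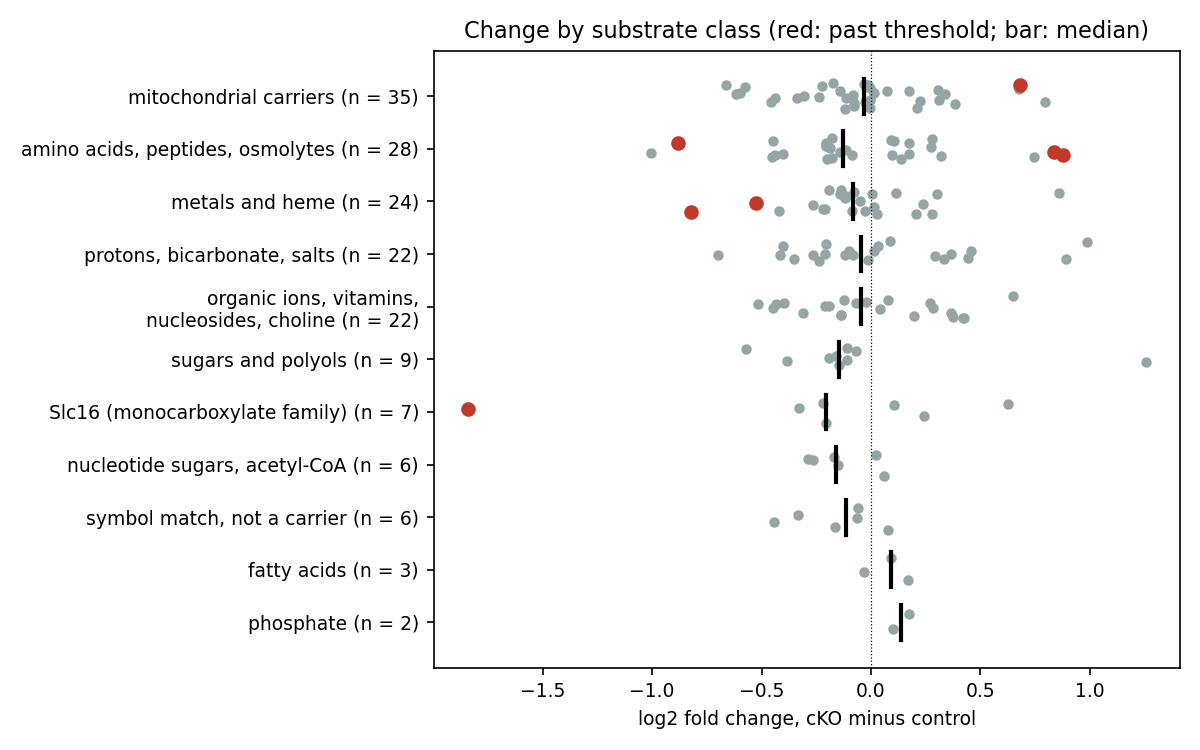
Log2 fold change of cKO against control (horizontal axis) for each member, in rows by substrate class with the number of members, red for those past the edgeR threshold and a bar at the class median. The class medians lie between -0.21 and 0.14.

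The symbol pattern also caught 6 genes that are not carriers. Slc9a3r1 and Slc9a3r2 encode scaffold proteins that bind the tails of transporters, Slc4a1ap encodes an adaptor protein, Slc7a6os is a gene next to Slc7a6, and Slc39a1-ps and Slc2a4rg-ps are pseudogenes. Their log2 differences lay between -0.44 and 0.08, and 0 passed or reached an unadjusted p under 0.05 in edgeR. Slc39a1-ps, at 22.8, 27.3 and 31.6 CPM, is a processed copy and can share reads with Slc39a1. Without these 6, 158 carriers remain, with the same 3 calls higher and 4 lower.

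The mean level of the members ran from 0.329 to 126.7 CPM per kilobase with a median of 5.20. The classes had medians from 2.97 for carriers of protons, bicarbonate and salts to 11.5 for fatty acid carriers, and within the mitochondrial class alone the range was 0.487 to 110.8. Of the 10 highest members per kilobase, 4 were in the metal and heme or Slc16 classes, 3 were mitochondrial and 3 carried amino acids, and 0 passed the edgeR test, limma-voom or DESeq2. The members that passed ranked lower in level, and the highest of them, Slc41a2, ranked 35 of 164.

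**Figure D5:**
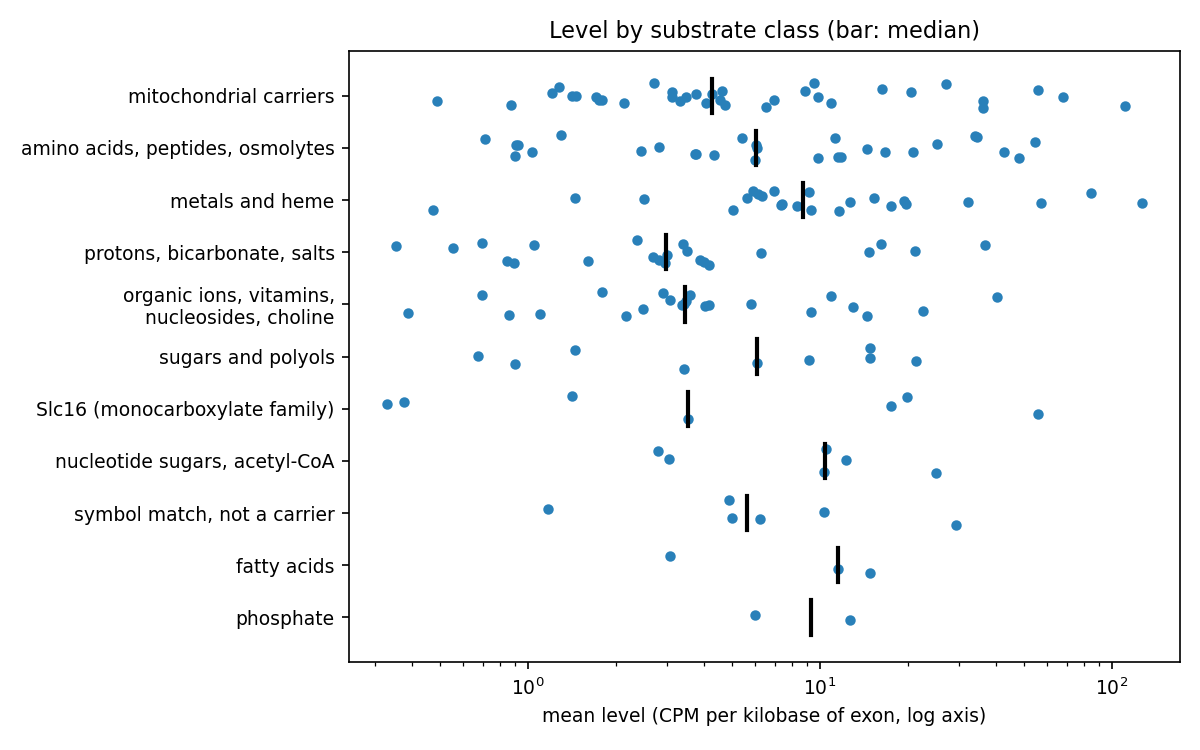
Mean level of each member in CPM per kilobase of exon (log axis, mean of the cKO mean and the control), in rows by substrate class, with a bar at the class median. Slc39a7 and Slc25a4 lie farthest to the right, at 126.7 and 110.8.

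Chromosome X holds 10 members, given apart because the cKO libraries differ in Xist. The log2 difference of cKO replicate 1 from cKO replicate 2 had a median of 0.04 over these 10 (range -0.61 to 0.44) and of 0.01 over the other 154 (range -0.62 to 0.76). Of the 10, 6 were higher in cKO replicate 1 and 4 in cKO replicate 2. Slc7a3, the 1 that passed, was level between them at 11.6 and 11.4 CPM. Slc25a53 (2.41, 3.75 and 4.67 CPM), Slc25a14 (3.13, 4.14 and 2.10 CPM) and Slc9a7 (3.53, 3.36 and 1.85 CPM) had the fewest reads of the 10. Slc10a3 lay at 20.8, 19.5 and 17.6 CPM.

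Exons of 43 members overlap those of another annotated gene, 37 of them on the opposite strand, and no source used here says whether the counting used strand. None of the 7 genes called is among the 43. Of the genes given above, Slc6a9, Slc38a10, Slc48a1, Slc4a2, Slc12a4, Slc29a1, Slc33a1 and Slc35a4 overlap on the opposite strand, and Slc39a7 on the same strand, so their levels may include reads of the partner gene.

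Carriers with other symbols were compared through a list of 80 genes, of which 54 were tested. It holds the Slco organic anion carriers, families whose symbols have another letter, such as Slc35b, and carriers named otherwise. In this list 2 rose and 0 fell, or 3.70% beside 4.91% of all genes, and the median was -0.03. Slco2a1, which takes up prostaglandins, lay at 182, 172 and 85.5 CPM. It rose 2.07-fold (log2 1.05 ± 0.14 SE, edgeR adjusted p = 2.80e-05, DESeq2 adjusted p = 5.87e-06), a larger fold than that of any member that rose. Ank, which exports pyrophosphate, rose 1.59-fold and passed in both tools. Of 44 tested pumps and ABC transporters, 2 rose and 0 fell, or 4.55% beside 4.91% of all genes tested. The 2 that rose were Tap1 and Tap2, which carry peptides for antigen presentation and are known interferon targets, at 6.43-fold and 3.04-fold. Of 22 carrier partners, among them the kinases that set salt transport and the chaperones of lactate carriers, 0 passed in edgeR or DESeq2. In edgeR 5 reached an unadjusted p under 0.05, which is 22.7% beside 15.7% of all genes tested.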

How the data were processed

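RNA was measured in 2 cKO libraries and 1 control library. The authors deposited whole-number read counts per gene symbol, 1 column per library. The submitters' processing notes list GRCh37 and GRCm38, with no aligner, counter or strand use given in the sources used here. Members, lists and motifs were chosen with earlier results of these data known.

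The fit ran over 15529 genes kept by filterByExpr, with edgeR 4.0.16 (R 4.3.3), TMM scaling, quasi-likelihood F test, Benjamini-Hochberg adjustment and a threshold of 0.05, and was tested on simulated data. It has 1 residual degree of freedom, from the cKO pair. The SE is the absolute log2 fold change over the root of F. CPM uses TMM-normalised library sizes. The cKO columns differed by more than counting noise (chi-square 9.82 per gene over 14813 genes). The labels do not say how many cultures or animals gave the libraries. The p-values rest on the spread within the cKO pair and, more heavily, on variance shared across genes (19.9 prior degrees of freedom). The lone control adds no spread of its own. DESeq2 1.42.0, limma-voom (limma 3.58.1), other size factors, filters and prior degrees of freedom were alternatives.

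Gene positions, exon lengths and overlaps come from GENCODE M21 (GRCm38), in which all 164 members matched. Promoters come from RefSeq and matched 125. Members were named by rule: those past the threshold, otherwise the most abundant up to 3 per class, the 10 highest per kilobase, those next to the count minimum, those on chromosome X and those that are not carriers. Every call in the lists of other carriers, pumps, carrier partners and ATF4-linked genes was named too. Calls among the chondrocyte and interferon genes are given as counts, and those among the other cell type markers are named. The uncalled ATF4-linked carriers, and the promoter of Slc7a11, were added to this rule after their values were seen. A few members that the rule names are not reported here.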

Additional observations from a re-analysis of the deposited data

How the results depend on the processing

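No paired analysis was possible because the control library carries no replicate number and stands alone. Against 3 members called higher and 4 called lower, RLE size factors gave 3 and 3, upper-quartile size factors 3 and 6, a count minimum of 30 summed counts 3 and 5, a minimum of 300 summed counts 3 and 3, limma-voom 3 and 4, and edgeR's legacy quasi-likelihood method, added after seeing the data, 3 and 4. The calls were 0 and 0 in DESeq2, with prior degrees of freedom of 3 or 5, and without a filter. Without a filter 0 of 24051 genes passed at all, with estimated prior degrees of freedom of 2.03, and 22 members had an unadjusted p under 0.05, so that setting separates no gene from another. At least 2-fold in each cKO library was reached by 1 member higher and 1 lower. Of the carriers with other symbols, 2 rose in DESeq2 and 0 with prior degrees of freedom of 3, where 3 had an unadjusted p under 0.05. Over the 8 alternative fits the log2 fold change of each of the 7 called members kept its sign, with that of Slc16a14 between -1.87 and -1.83. Leaving out a cKO library leaves 1 library against 1 and no test. The members' median was then -0.08 without replicate 1 and -0.05 without replicate 2. Upper-quartile size factors turned the sign of Slc25a5, to -0.0167, and moved the median over the members to -0.11 and that over all genes to -0.03. They left 48 members (29.3%) above and 91 (55.5%) below the control in both cKO libraries, beside 32.9% and 41.4% of all genes tested. With RLE size factors 51 members lay above and 83 below, beside 36.4% and 37.5% of all genes tested. Slc26a7, just under the minimum of 100 summed counts, fell by 1.78 on the log2 scale in edgeR (adjusted p = 0.0137) and did not pass in DESeq2 (adjusted p = 0.637). Low counts limit precision inside it too, where Slc9a7 had an SE of 0.44.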
